A study of Mus musculus with 6 samples.

Results

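Kinesins were examined in the brains of mice that carry a human SRY transgene. Every array probe whose gene symbol begins with Kif and a digit was taken, which gave 49 probes of 28 symbols among the 25697 probes of the table. Of these, 33 probes of 20 symbols were told from background (detection p under 0.05) on 3 or more arrays of 6, and they are described here. They were split by known role: 8 probes of 6 symbols belong to the mitotic kinesins Kif2c, Kif4, Kif11, Kif15, Kif22 and Kif23, and 25 probes of 14 symbols to the other, mostly transport, kinesins. Kif18a is also on the mitotic list, but its 2 probes were detected on no array, and Kif20a was not analysed here.

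RNA came from whole brains of male FVB mice (FVB/N in the study's methods) at postnatal day 6, with 3 hSRY-OFF and 3 hSRY-ON brains hybridised to bead arrays. By the methods' definition of hSRY-OFF, all 6 mice carried the Signalox-hSRY transgene, a single copy placed at the H11 locus. The study's results call the compared animals age-matched controls, and its control littermates are defined as lacking this transgene. Cre from a Ddx4-Cre mother acts whether or not the pup inherits Ddx4-Cre. The study does not give the litters of these 6 mice, so cross, mother and litter cannot be told apart from group. In hSRY-OFF mice the ubiquitous CAG promoter drives the red fluorescent protein DsRed2. In hSRY-ON mice Cre carried over from the oocyte had removed that cassette at the start of development, so the same promoter drives FLAG-tagged human SRY followed by EGFP, and the hSRY-ON mice used for the arrays did not themselves carry the Ddx4-Cre transgene. The males also have their own mouse Sry gene. Because the promoter is active in most cell types, a difference between the groups cannot be assigned to a cell type from whole brain. In such bulk RNA, fewer cells of a type and less RNA per cell cannot be told apart. The study sampled this age when some hSRY-ON pups had died and growth retardation could be seen. It also reports a lack of milk in their stomachs and smaller brains. Poor feeding and slow growth therefore cannot be told apart from an action of SRY within the brain.

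Kinesins are motor proteins that use ATP to act on microtubules. In dividing cells, members of several families build the spindle, move and align chromosomes, and organise the midzone where the cell is cut. In neurons, which no longer divide, other members carry vesicles, mitochondria and cytoskeletal cargo along axons and dendrites. The early postnatal brain holds both, since granule cell precursors in the cerebellum and glial progenitors still divide at this age.

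All 8 mitotic kinesin probes were lower in hSRY-ON brains, and 3 of them, for Kif2c, Kif23 and Kif22, passed the test at an adjusted p under 0.05 (limma, Benjamini-Hochberg over 14215 probes). Across all tested probes 2.17% passed in either direction and 1.32% passed as lower. None of the 25 other kinesin probes passed, and 1 of them had an unadjusted p under 0.05, against 20.9% of all tested probes. Since only 2.17% of all tested probes were called, 0 calls among 25 probes is no result about them. On the log2 scale the median difference, hSRY-ON minus hSRY-OFF, was -0.74 over the brightest probe of each of the 6 mitotic symbols, with a range of -0.95 to -0.49. It was 0.02 over the 14 other symbols, with a range of -0.44 to 0.20, and 0.00 over all 14215 probes, whose quartiles lay at -0.14 and 0.14. The contrast between these 2 classes is a description, and no test was run over either list.

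**Figure D1:**
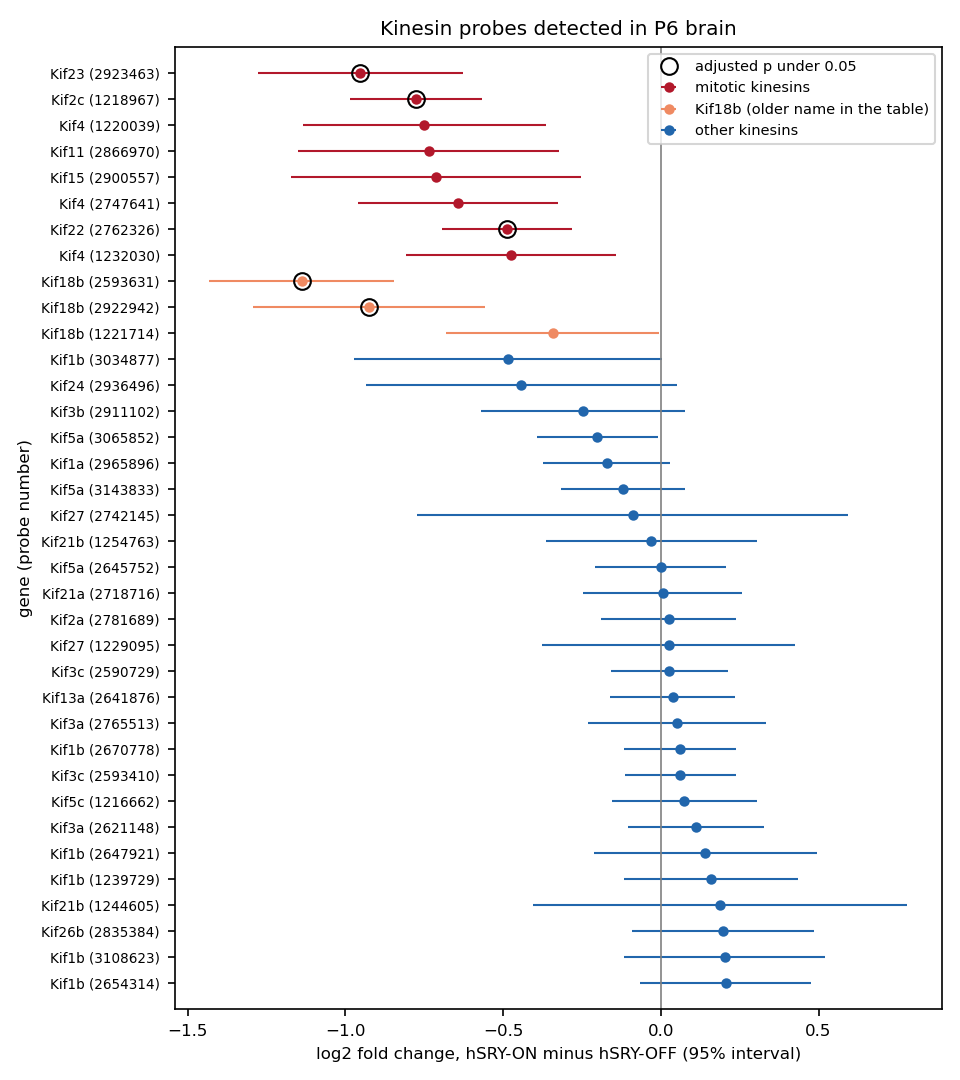
Log2 fold change (hSRY-ON minus hSRY-OFF) with its 95% interval for the 33 detected kinesin probes and the 3 probes of Kif18b, ordered within class. The horizontal axis is the difference and the vertical axis names the gene and probe number, with rings marking an adjusted p under 0.05. The 8 mitotic probes lie between -0.95 and -0.48, and the other kinesins between -0.49 and 0.21.

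Kif2c encodes a kinesin that takes microtubules apart at centromeres and so helps to correct faulty attachments. Its log2 signals were 8.34, 8.35 and 8.19 in the 3 hSRY-OFF brains and 7.45, 7.49 and 7.62 in the 3 hSRY-ON brains. Every hSRY-ON value lay below every hSRY-OFF value, with a gap several times the spread within either group. The difference was -0.78 ± 0.089 (SE, n = 3 per group; adjusted p = 0.0263), and it was -0.48 without background correction.

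Kif23 encodes the motor subunit of centralspindlin, which gathers at the midzone and is needed for the daughter cells to separate. Its log2 signals were 8.05, 8.12 and 7.66 in hSRY-OFF and 6.92, 7.13 and 6.92 in hSRY-ON. The groups did not overlap, although the third hSRY-OFF brain sat below the other two. Kif23 had the largest difference of the 8 mitotic probes, -0.95 ± 0.14 (SE, n = 3 per group; adjusted p = 0.0313), and it was -0.52 without background correction.

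Kif22 encodes a chromokinesin that binds chromosome arms and pushes them away from the poles. Its log2 signals were 9.55, 9.76 and 9.59 in hSRY-OFF and 9.16, 9.09 and 9.19 in hSRY-ON. The hSRY-ON values were the tightest of the 8 mitotic probes (SD 0.051) and all lay below the hSRY-OFF values. The difference was -0.49 ± 0.088 (SE, n = 3 per group; adjusted p = 0.0451). With no filter on dim probes, so that all 25697 were adjusted over, Kif22 was no longer called (adjusted p = 0.0747).

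The remaining 5 mitotic probes did not pass the threshold, with adjusted p between 0.0595 and 0.124. Kif4, a chromokinesin that works with Prc1 to set the length of the midzone, was read by 3 probes. The brightest gave 8.05, 8.02 and 8.002 in hSRY-OFF and 7.38, 6.89 and 7.54 in hSRY-ON, a difference of -0.75 ± 0.16 (SE; adjusted p = 0.0655). The hSRY-OFF brains were almost level and the spread came from hSRY-ON. The other two Kif4 probes differed by -0.64 and -0.48 with adjusted p = 0.0595 and 0.124, so the 3 probes had the same direction. Without background correction the 3 differences were -0.42, -0.25 and -0.17.

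Kif11 encodes the motor that slides antiparallel microtubules apart to make the spindle bipolar. Its values were 7.69, 7.42 and 7.13 in hSRY-OFF and 6.61, 6.47 and 6.95 in hSRY-ON, a difference of -0.74 ± 0.18 (SE; adjusted p = 0.0799). The gap between the lowest hSRY-OFF brain and the highest hSRY-ON brain was small beside the spread within each group. Kif15, which helps to keep the spindle bipolar, gave 7.62, 7.69 and 7.50 in hSRY-OFF and 6.42, 7.15 and 7.10 in hSRY-ON, a difference of -0.71 ± 0.20 (SE; adjusted p = 0.105). One hSRY-ON brain was far lower than the other two, and 2 further Kif15 probes were detected on no array. Without background correction Kif11 and Kif15 both differed by -0.35.

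In all 8 mitotic probes the groups did not overlap, where 14.2% of all tested probes did so in that direction. All 8 also had an unadjusted p under 0.05, against 10.9% of all tested probes that were lower at that level. Relaxing the adjusted p to 0.10 left 6 of the 8 probes and 3.98% of all tested probes as lower.

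**Figure D2:**
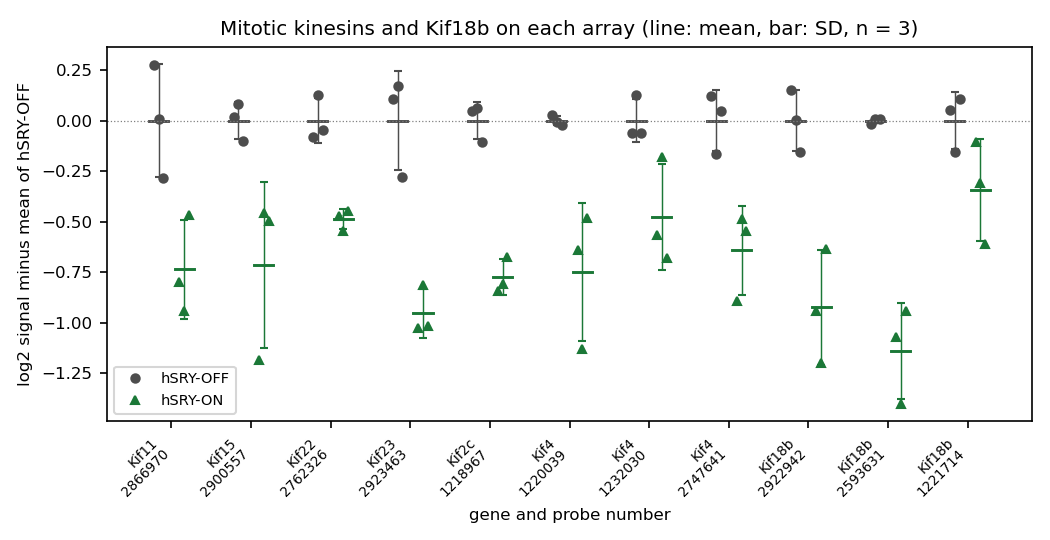
Log2 signal of each brain minus the hSRY-OFF mean of that probe (vertical axis) for the 8 mitotic kinesin probes and the 3 probes of Kif18b (horizontal axis, gene and probe number). Lines mark group means and bars 1 SD (n = 3). In each of the 8 mitotic probes the 3 hSRY-ON brains lie below the 3 hSRY-OFF brains, and only the dimmest Kif18b probe shows overlap.

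The calls at the adjusted threshold were sensitive to single arrays. Leaving out any 1 of the 3 hSRY-OFF brains, hSRY-ON 1 or hSRY-ON 2 left 0 kinesin probes past the threshold, while at most 1 of all tested probes passed in those fits. Without hSRY-ON 3, which stood apart from the other arrays on the second principal component (-22.2, against 0.045 to 8.92), there were 3 calls, for Kif23, Kif2c and Kif4. In every one of these 6 fits the 8 mitotic probes were lower with an unadjusted p under 0.05.

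Kif18b, which limits the length of spindle microtubules at their growing ends, has a mitotic role but is listed under an older clone name, 3000004C01Rik, so the symbol rule did not take it. It was named as a mitotic kinesin outside the list, and was matched to its row through its current symbol. Its brightest probe gave 8.28, 8.30 and 8.30 in hSRY-OFF and 7.22, 6.89 and 7.35 in hSRY-ON. The difference of -1.14 ± 0.12 (SE, n = 3 per group; adjusted p = 0.0243) was larger than that of any probe on the mitotic list. Another probe differed by -0.92 ± 0.16 (SE; adjusted p = 0.0386), and the dimmest, detected on 5 arrays, by -0.34 with overlapping groups (adjusted p = 0.233). Without background correction these 3 differences were -0.66, -0.42 and -0.09, and with no filter on dim probes the second was not called (adjusted p = 0.0573). Kif14, another mitotic kinesin, was not detected by either of its probes on any array, and Kif20b was not analysed here. Counting Kif18b with the mitotic kinesins gave a median of -0.75 over 7 symbols.

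Cell cycle genes that peak at mitosis often carry a CHR (cell cycle genes homology region) element close to the start of transcription, where the DREAM and MuvB complexes bind, and the hexamer TTTGAA is its usual core. The promoter windows of RefSeq (build GRCm38.p6), each running from 250 bases before to 50 bases after an annotated start, were searched for TTTGAA on both strands, which is TTCAAA on the opposite strand. The match nearest the start is shown in capitals for the 6 mitotic kinesins and Kif18b, 5′ to 3′ on the strand of the gene, so that the shared hexamer and its differing surroundings can be compared.
Kif2c, chr4:117178858-117178887, minus strand: ccaggctgctctTTCAAAcctgagtaatgc
Kif22, chr7:127042420-127042449, minus strand: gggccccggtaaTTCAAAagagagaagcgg
Kif23, chr9:61946780-61946809, minus strand: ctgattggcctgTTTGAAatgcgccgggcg
Kif15, chr9:122951050-122951079, plus strand: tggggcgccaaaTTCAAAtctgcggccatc
Kif11, chr19:37376351-37376380, plus strand: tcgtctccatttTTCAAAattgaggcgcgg
Kif4, chrX:100626072-100626101, plus strand: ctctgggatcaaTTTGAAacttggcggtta
Kif18b, chr11:102925104-102925133, minus strand: cggaccggctagTTTGAAcgcgccgcgccg

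The hexamer occurred in 6 of 6 mitotic windows and in that of Kif18b. It occurred in 3 of 15 windows of the other kinesins, those of Kif1a, Kif26b and Kif27, and in 17.9% of the 32851 windows of all genes. Within 50 bases of the start on either side it occurred in 5 of 6 mitotic windows, 2 of 15 other windows and 4.9% of all windows. The nearest match began 19 bases before the start in Kif11 and Kif15, 17 bases before it in Kif22, and at positions 3, 4 and 20 after it in Kif23, Kif18b and Kif4. The exception was Kif2c, at 103 bases before the start, in a window whose start lies 3852 bases inside the annotated gene. Among the other kinesins, the windows of Kif1a and Kif27 that hold the hexamer also start inside their genes, by 19559 and 9798 bases, and the further Kif1a window, 165 bases inside the gene, does not hold it. The promoters of Kif5a and Kif21b were not analysed here.

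The 120 bases before the start of Kif11 and of Kif5c, a neuronal kinesin, are shown as an example of each class in a longer stretch, chosen after the matches were seen. In Kif11 the capitals mark ATTGG, which is CCAAT on the opposite strand and the site of the factor NF-Y, followed by the TTCAAA match, and in Kif5c none of the searched motifs is present. The pair does not stand for the classes as to CCAAT, which 6 of the 12 other kinesin genes hold and the mitotic Kif15 and Kif2c do not.
Kif11, chr19:37376262-37376381, plus strand: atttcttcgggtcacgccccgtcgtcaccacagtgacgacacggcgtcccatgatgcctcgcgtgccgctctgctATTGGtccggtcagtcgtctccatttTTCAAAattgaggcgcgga
Kif5c, chr2:49619166-49619285, plus strand: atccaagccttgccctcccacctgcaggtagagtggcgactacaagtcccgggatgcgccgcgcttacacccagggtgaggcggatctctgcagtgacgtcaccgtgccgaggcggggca

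CCAAT, on either strand, was found in 4 of 6 mitotic windows, 7 of 15 other windows and 37.4% of all windows, and within 50 bases of the start in 3 of 6, 1 of 15 and 13.6%. The variant hexamer TTTAAA was in 1 of 6 mitotic, 0 of 15 other and 13.2% of all windows. AACAAT, a core bound by SOX-type factors, the family to which SRY belongs, was in 1 of 6 mitotic windows, that of Kif15, in 0 of 15 other windows and in 10.7% of all windows. These are matches of letters in fixed windows. Binding was not measured.

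**Figure D3:**
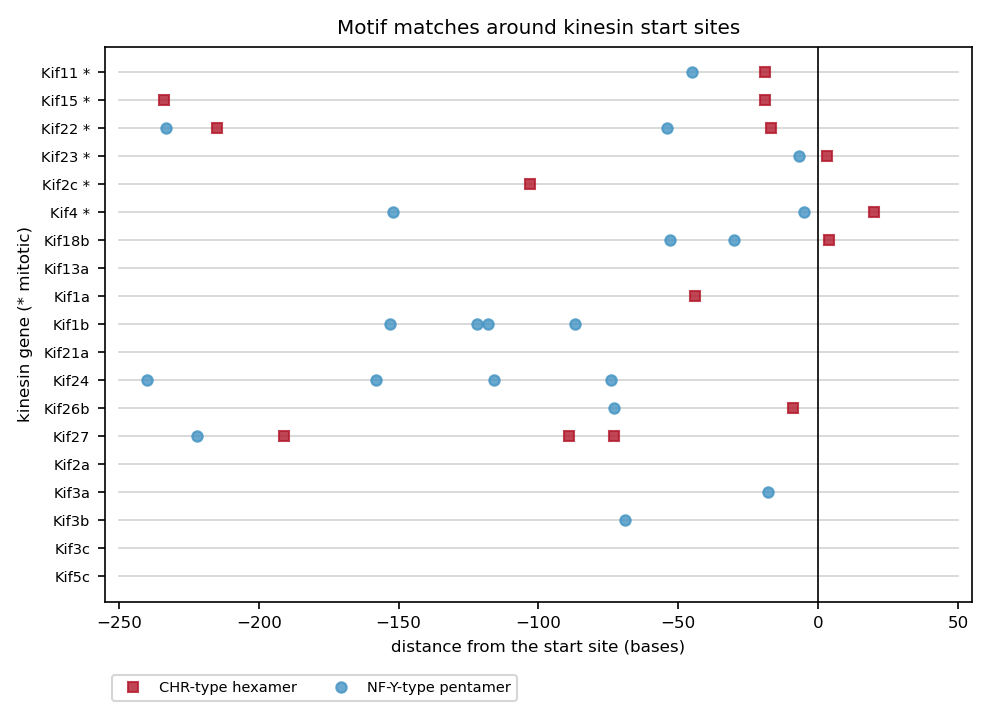
Positions of the CHR-type hexamer (squares) and the NF-Y-type pentamer (circles), on either strand, in the promoter windows of the kinesins that have one. The horizontal axis is the distance in bases from the annotated start, the vertical axis the gene, and asterisks mark the mitotic list, with all windows of a gene on 1 line. Squares lie within 50 bases of the start in 5 of the 6 mitotic genes.

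Among the transport kinesins, kinesin-1 is the main motor of fast transport toward the axon tip. Kif5a, a neuronal heavy chain of kinesin-1, had 3 probes. One gave 12.64, 12.62 and 12.68 in hSRY-OFF and 12.43, 12.54 and 12.37 in hSRY-ON. These groups did not overlap, but the difference was small, -0.20 ± 0.081 (SE; adjusted p = 0.218; 95% interval -0.39 to -0.01). The other two Kif5a probes differed by -0.12 and -0.00, with overlap, so the probes of the gene did not share a clear shift. Kif5c, the other neuronal heavy chain, gave 13.26, 13.13 and 13.01 in hSRY-OFF and 13.28, 13.10 and 13.24 in hSRY-ON, a difference of 0.07 with a 95% interval of -0.16 to 0.30. Kif5b, the ubiquitous heavy chain, did not pass the detection filter, as 1 of its 2 probes was detected on 1 array and the other on none.

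Kinesin-3 motors carry precursors of synaptic vesicles and, for Kif1b, also mitochondria. Kif1a gave 10.01, 10.02 and 10.12 in hSRY-OFF and 9.78, 9.97 and 9.88 in hSRY-ON, without overlap, and a difference of -0.17 ± 0.085 (SE; adjusted p = 0.299). Kif1b had 6 detected probes, of which 5 were higher in hSRY-ON by 0.06 to 0.21 and did not pass. The sixth gave 9.05, 8.98 and 8.86 in hSRY-OFF and 8.17, 8.98 and 8.27 in hSRY-ON, a difference of -0.49 ± 0.21 (SE; adjusted p = 0.241). There the second hSRY-ON brain lay among the hSRY-OFF brains, while the other two were lower, and without that brain the difference was -0.74. Kif13a, which moves vesicles from the Golgi, differed by 0.04 with a 95% interval of -0.16 to 0.24.

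Kinesin-2 drives transport within cilia and along axons as a complex of Kif3a, Kif3b and the adaptor Kifap3, with Kif3c as an alternative partner of Kif3a. The 2 probes of Kif3a differed by 0.11 and 0.05 and the 2 probes of Kif3c by 0.06 and 0.03. Kif3b gave 8.89, 8.94 and 9.16 in hSRY-OFF and 8.94, 8.49 and 8.82 in hSRY-ON, a difference of -0.25 ± 0.14 (SE; adjusted p = 0.353), with overlap that came from the first hSRY-ON brain. Without hSRY-ON 2, the lowest, the difference was -0.12. No kinesin-2 probe passed the test.

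Kif2a belongs to the same depolymerising family as Kif2c, and in neurons it prunes axon branches. Its detected probe gave 10.21, 10.14 and 9.95 in hSRY-OFF and 10.14, 10.12 and 10.11 in hSRY-ON. The groups lay on top of each other, and the difference was 0.02 with a 95% interval of -0.19 to 0.24, while that of Kif2c was -0.99 to -0.57. The 2 further Kif2a probes were detected on no array. Kif21a, a neuronal kinesin that restrains microtubule growth, differed by 0.01, and the 2 probes of its relative Kif21b differed by 0.19 and -0.03.

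The other detected kinesins were Kif24, Kif26b and Kif27. Kif26b was the only other kinesin probe without overlap in the higher direction, at 6.77, 6.72 and 6.75 in hSRY-OFF and 7.21, 6.80 and 6.83 in hSRY-ON, with a difference of 0.20 (adjusted p = 0.403) that was 0.0647 without hSRY-ON 1. Kif24, a centriolar kinesin, was the member nearest the detection limit. It was detected on 3 hSRY-OFF arrays and 1 hSRY-ON array, with log2 signals of 5.88, 5.46 and 5.88 against 5.05, 5.11 and 5.74, a difference of -0.44 (adjusted p = 0.279) and overlapping groups. Just outside the limit, 1 probe each of Kif1c, Kif5b and Kif17 was detected on 1 array. In all, 16 kinesin probes did not pass, 13 of them detected on no array, and 8 symbols had no probe that passed.

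Over the 25 other kinesin probes, 9 were lower and 16 higher, where 48.9% of all tested probes were lower. Of the 25, 2 did not overlap as lower and 1 as higher, where 14.2% and 13.5% of all tested probes did. Their adjusted p ran from 0.218 to 0.997. A miss of the threshold does not show equal levels. The widest 95% interval, that of a Kif27 probe, ran from -0.77 to 0.59, so a change of the size seen in the mitotic kinesins could not be told from none there.

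**Figure D4:**
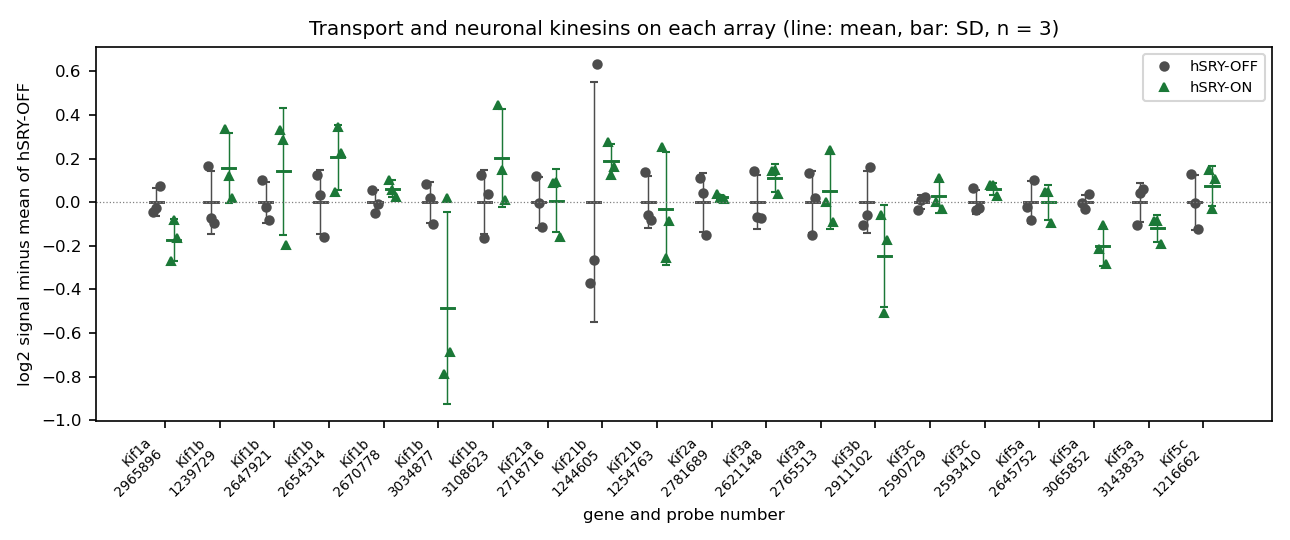
Log2 signal of each brain minus the hSRY-OFF mean of that probe (vertical axis) for the detected probes of the transport and neuronal kinesins (horizontal axis, gene and probe number). Lines mark group means and bars 1 SD (n = 3). Groups overlap for all probes but the one of Kif1a and 1 of the 3 of Kif5a, and a Kif1b probe has 2 low hSRY-ON brains.

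Transcripts were also read for 10 genes whose proteins work with the mitotic kinesins on the spindle. Of these, 7 were detected and 5 passed the test as lower, where 1.32% of all tested probes did. All 7 had differences below 0 without overlap, where 14.2% of all tested probes lay so. Plk1, the kinase that recruits factors to the midzone, differed by -0.997 (adjusted p = 0.0294). Prc1, the microtubule bundler that binds Kif4, differed by -0.87 (adjusted p = 0.0328). The chromosomal passenger genes Birc5 and Incenp differed by -0.91 and -0.53 (adjusted p = 0.036 and 0.0484), though the other two Birc5 probes did not pass (-0.99 and -0.92, adjusted p = 0.0584 and 0.0717), and Nusap1, a spindle microtubule-binding protein, by -0.82 (adjusted p = 0.0413). Aurka and Cdca8 did not pass (-0.62 and -0.69, adjusted p = 0.0774 and 0.0832), Tpx2 was not detected, and Aurkb and Racgap1 were not analysed here.

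Partners of the transport motors were read in the same way. Of 17 genes for light chains, C-terminal and other kinesins and cargo adaptors, 13 were detected, 6 lower and 7 higher, with a median of 0.04 and 0 past the adjusted threshold, and 1, the mitochondrial adaptor Trak2, had an unadjusted p under 0.05 (-0.21, adjusted p = 0.17), against 20.9% of all tested probes. The other two Trak2 probes differed by -0.16 and 0.24. Cenpe, a kinesin of the kinetochore, was in that list and was not detected. Dynein and dynactin form the motor that runs the opposite way along microtubules. Of 24 of their genes and regulators, 21 were detected, with a median of 0.04 and 0 calls by limma, and 4 had an unadjusted p under 0.05, 2 lower and 2 higher, which is a share near the 20.9% of all tested probes. Since 2.17% of all tested probes were called, 0 calls in lists of 13 and 21 genes is no result about them. In the dynein and dynactin list the largest difference was that of Hook2, a dynein adaptor, at 0.78 without overlap (adjusted p = 0.104).

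Of 7 markers of dividing cells 5 were detected, and 3 passed as lower, where 1.32% of all tested probes did. Top2a (-1.08, adjusted p = 0.0327), Cdk1, listed as Cdc2a (-1.05, adjusted p = 0.0484), and Ccnb1 (-0.78, adjusted p = 0.0479) were the 3, each by its brightest probe. Another Ccnb1 probe did not pass (-1.04, adjusted p = 0.0565). Mcm2 differed by -0.76 (adjusted p = 0.0513), Pcna by 0.12 (adjusted p = 0.82), and Ccna2 was not detected. The median of the proliferation markers, relative to the hSRY-OFF mean, was between -0.12 and 0.10 in the hSRY-OFF brains and between -1.03 and -0.49 in hSRY-ON. The mitotic kinesins ran from -0.10 to 0.07 and from -0.82 to -0.49. In both lists hSRY-ON 3 was the least shifted of the hSRY-ON brains. The part of cell number in the kinesin values was not tested.

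Of 10 neuron markers, 7 were detected and 0 passed the test by limma, with 0 at an unadjusted p under 0.05, where 2.17% and 20.9% of all tested probes did, so that 0 calls among 7 genes is no result about them. Their median on single arrays lay between -0.01 and 0.07 in hSRY-OFF and between -0.09 and 0.01 in hSRY-ON, and that of the other kinesins between -0.04 and 0.09 and between -0.02 and 0.10. The neuron markers Snap25 and Nefl were not detected by the probes of this array. Markers of other cell types were read against the same shares. Of 6 myelin markers 1 passed as lower (Mobp, -1.36, adjusted p = 0.0348, with 1 of its 3 probes not passing), and all 6 had differences below 0. Of the 6, 5 were lower at an unadjusted p under 0.05 by limma, against 10.9% of all tested probes. The groups did not overlap in 5, against 14.2%, and 4 had an adjusted p under 0.10, against 3.98%. The myelin medians were -0.61 to -0.55 in the hSRY-ON brains against -0.16 to 0.29 in hSRY-OFF. The 4 astrocyte markers did not move together: Gfap and Aqp4 passed as lower (-0.83 and -0.81, adjusted p = 0.0308 and 0.0275), while Aldh1l1 differed by -0.48 (adjusted p = 0.0834) and Slc1a3 by 0.03 with overlap (adjusted p = 0.897), for a median of -0.65. For ciliated ependyma, microglia, endothelium, choroid plexus and red cells, 0 of 7, 3, 3, 3 and 2 detected markers passed by limma. Before adjustment 1, 0, 2, 2 and 0 of them had p under 0.05. The list medians were -0.07, -0.04, -0.42, 0.37 and -0.17.

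**Figure D5:**
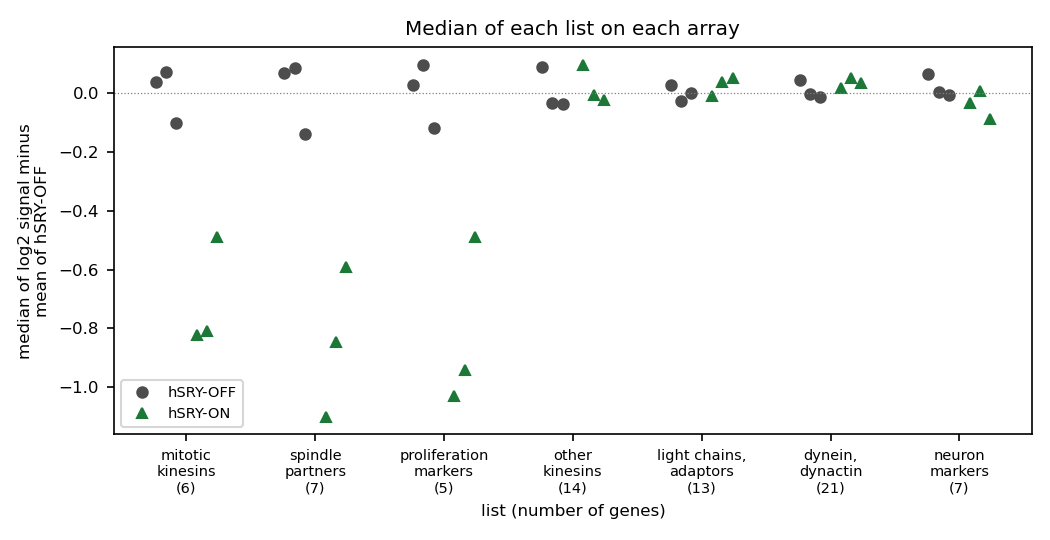
Median over each list, on each array, of the log2 signal minus the hSRY-OFF mean of the gene (vertical axis), for 7 lists (horizontal axis, number of genes in parentheses). Circles are hSRY-OFF and triangles hSRY-ON brains. Mitotic kinesins, spindle partners and proliferation markers are all below -0.48 in hSRY-ON, while the other 4 lists drawn stay between -0.09 and 0.10 on every array. Lists not drawn ran in hSRY-ON from -0.72 to -0.51 (astrocytes), -0.61 to -0.55 (myelin), -0.68 to -0.26 (endothelium) and 0.36 to 0.51 (choroid plexus). Those of ependyma, microglia and red cells ran from -0.19 to -0.05, -0.02 to 0.12 and -0.38 to 0.14.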

How the data were processed

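Biotinylated cRNA from 6 brains was hybridised to Illumina MouseRef-8 arrays. The authors deposited a mean bead signal intensity and a detection p-value per probe, without normalization; the labels' processing notes name limma, and the methods name TCC without its settings. Here intensities were corrected with limma's normexp fit, with negative controls inferred from the deposited detection p-values and an offset of 16, turned to log2 and quantile normalized. Quantile normalization was at first run on the linear scale; it was moved to the log2 scale, as limma's own routine does, after the counts of calls had been seen, and both are reported. Probes with detection p under 0.05 on at least 3 arrays (14215 of 25697) were fitted with lmFit and eBayes on group, two-sided, with Benjamini-Hochberg adjustment over all of them and a threshold of 0.05.

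The kinesins, the mitotic list and the related lists were chosen with earlier results of these data known. Named were all detected mitotic kinesin probes, other kinesin probes with a call or without overlap, the main transport kinesins, Kif14, Kif18b and Kif20b, and related genes with a call; other named genes were chosen after their values were seen. Probes of a gene are given separately, and lists use the brightest probe. Methods give the 3 samples per group as separate mice. Array number limits precision, and no array was dropped (correlations 0.986 to 0.994). The smallest adjusted values rest on a pooled variance; an exact permutation of 3 against 3 cannot go below 0.1. R 4.3.3, limma 3.58.1, Python 3.11.15 and matplotlib 3.10.9 were used. The fit was tested on simulated data, in which the share of false calls was above the threshold when background noise was drawn anew for each array and below it when each probe kept its own background, so the adjusted p of dim probes, mitotic kinesins included, may be too small.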

Additional observations from a re-analysis of the deposited data

How the results depend on the processing

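In every alternative the mitotic probes that had been detected and were tested were lower with an unadjusted p under 0.05, while the number of called kinesin probes moved. It was 7 without background correction (9.26% of all tested probes called), 7 with normexp at an offset of 50 (6.05%), 6 with detection p under 0.01 on all 6 arrays (6.07%), 8 with a trended robust prior (10.2%, where 1 probe of Kif5a joined), 6 at an adjusted p under 0.10 (7.03%), 4 with array weights (3.38%), 2 with no filter on dim probes (0.479%, where Kif22 was lost), and 0 to 3 when 1 array was left out. It was 3 with quantile normalization on the linear scale, the setting used at first, which called 311 of all tested probes. The log2 scale, adopted as the main setting after the counts of calls had been seen, called 308. A replicate block left 0 kinesin probes and 0 of all tested probes called, with all 8 mitotic probes at an unadjusted p under 0.05. The deviations of same-numbered brains correlated at 0.040, 0.029 and 0.025, so no strong shift shared by same-numbered brains was seen. With so few arrays these values cannot exclude a pairing, such as a shared litter or chip.

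The mitotic median of -0.74 became -0.41 without background correction and -0.54 with the offset of 50, both of which shrink differences of dim probes by construction, and ran from -0.85 to -0.70 when 1 array was left out. The median of the other kinesins ran from -0.05 to 0.07 over all alternatives. Among the named probes of the other kinesins (the signs of Kif13a, Kif24 and Kif27 were not followed), those near 0 changed sign in 16 instances, all with adjusted p over 0.78. Kif21a became -0.0219 with median scaling and -0.00307 with cyclic loess, Kif2a -0.00241 with median scaling, and a Kif5a probe 0.0167 with array weights. With 1 array left out, the values ran from -0.0510 to 0.0899 for Kif21a, -0.0525 to 0.0809 for Kif2a, -0.0422 to 0.0498 for that Kif5a probe, -0.170 to 0.0842 and -0.000758 to 0.508 for the 2 Kif21b probes, -0.0461 to 0.121 for a Kif3a probe and -0.0151 to 0.0576 for a Kif3c probe. The cause of the moved counts was not tested.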
